A study of Homo sapiens with 3 samples.

Results

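DEAD and DEAH box RNA helicases are enzymes that use ATP to unwind or remodel RNA, and the skipping of their exons is described here. The members were every listed exon of a gene whose symbol starts with DDX or DHX followed by a digit, in either of 2 deposited tables of exon-skipping events. This rule found 169 exons of 39434 in the series, in 44 gene symbols, 29 of them DDX and 15 DHX. Both tables listed 127 of these exons, 22 stood only in the RS2 table and 20 only in the RS3 table.

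The cells were BJ fibroblasts, an established human foreskin fibroblast line, labelled wild type and collected on day 8 after viral OSKM (OCT4, SOX2, KLF4 and MYC) had been induced to reprogram them. All 3 groups carried OSKM, and 1 library had received SMAD3 siRNA, 1 SFRS11 siRNA and 1 a non-targeting siRNA. SMAD3 is a transcription factor of TGF-beta signalling, and SFRS11 (SRSF11) is an SR-type splicing factor. The tables set libraries coded RS2 and RS3 each against the same other library, called the comparator here. No label ties any of the 3 to a siRNA, so the codes are kept and the comparator is not taken to be the non-targeting library. There was no replicate, so each deposited p-value or FDR weighs a pair of libraries and not the conditions, and read depth is unknown.

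Inclusion is the share of transcripts over a region that keep an exon. Every value is a difference in inclusion, RS2 minus the comparator or RS3 minus the comparator, on a scale from -1 to 1, so a negative value means less inclusion than in the comparator. The levels of the single libraries were not used here, because their columns carry no name that matches a sample. The tables share the comparator, so their values are set side by side and are not independent.

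DEAD and DEAH proteins share a core of paired RecA-like domains. Motif I of this core, also called Walker A or the P loop, binds ATP, and motif II, the DEAD or DEAH box that names the families, takes part in ATP hydrolysis. Members act at nearly every step of RNA life, from splicing and mRNA export to translation, mRNA decay and ribosome assembly. An exon that brings an early stop codon into an mRNA can send it to nonsense-mediated decay.

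In RS3, inclusion of 2 helicase exons was called, which means a deposited FDR under 0.05 and an absolute difference of at least 0.1, and both fell. They were a 137-base exon of DHX9 that lies outside its coding transcripts and an 82-base coding exon of DDX31. The DDX31 exon stands in 2 RS3 rows, and its call rests on 1 of them, while the other lists 0.015 in the authors' deposited table. In RS2, no helicase exon was called. A 75-base exon of DHX34 with an early stop codon had differences of 0.188 in RS2 and 0.242 in RS3 in the authors' deposited tables, with no call in either. In 19 of 44 genes, every listed event lay under 0.05 in absolute difference in both tables. Some of these genes had only 1 or 2 events, and no such share was taken over all genes. Over all events, 69.7% in RS2 and 67.3% in RS3 lay under 0.05.

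The calls were read against all events. In RS3, 2 of 162 helicase events were called (1.23%), against 0.967% of all 42518 events. In RS2, 0 of 162 were called, against 0.0712% of all 40702 events. The deposited p was under 0.05 for 13 helicase events in RS3 (8.02%, in 11 genes), against 7.61% of all events, and for 6 in RS2 (3.7%, in 6 genes), against 4.52% of all events. These shares were near the background and are no result about the helicases as a family. Of the 13 events in RS3, 12 were lower than in the comparator (7.41% of helicase events), against 5.2% of all events. The FDR was under 0.05 for 4 helicase events in RS3 (2.47%), against 1.64% of all events.

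**Figure D1:**
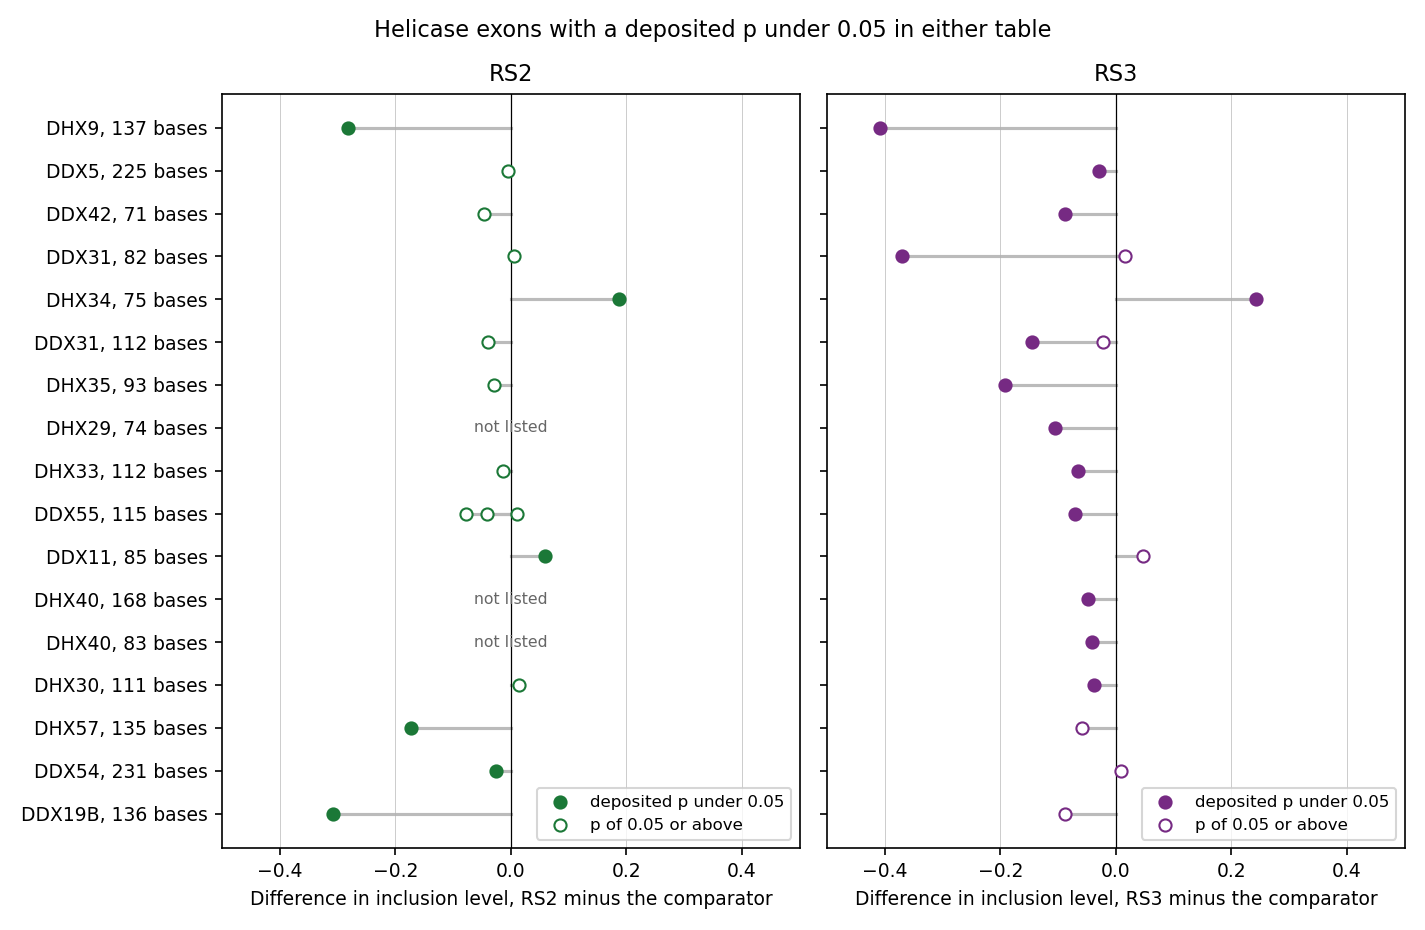
Difference in inclusion level, RS2 minus the comparator and RS3 minus the comparator, for the 17 helicase exons with a deposited p under 0.05 in either table; each point is 1 event, filled where its p is under 0.05. The DHX9 exon lies at -0.282 in RS2 and -0.408 in RS3, and DHX34 is the only exon filled on the positive side of both panels.

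The reference sequences of 6 exons are shown: both called exons, the DHX34 exon for its stop codon, and 3 coding exons found to hold all of motif I. They come from GENCODE release 29 transcripts on GRCh38, written 5′ to 3′ on the transcript strand, and were matched to the tables by exon length and spacing. Capitals mark the stop codon in DHX34 and the codons of motif I in DHX35, DHX40 and DDX56.
DHX9: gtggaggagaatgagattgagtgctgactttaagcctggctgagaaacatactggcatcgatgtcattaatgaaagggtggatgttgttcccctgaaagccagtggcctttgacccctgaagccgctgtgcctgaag
DDX31: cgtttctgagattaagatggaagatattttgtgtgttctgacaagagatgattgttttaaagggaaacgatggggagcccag
DHX34: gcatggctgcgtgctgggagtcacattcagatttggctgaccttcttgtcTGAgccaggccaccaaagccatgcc
DHX35: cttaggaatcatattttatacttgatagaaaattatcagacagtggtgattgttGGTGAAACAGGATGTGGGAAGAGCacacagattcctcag
DHX40: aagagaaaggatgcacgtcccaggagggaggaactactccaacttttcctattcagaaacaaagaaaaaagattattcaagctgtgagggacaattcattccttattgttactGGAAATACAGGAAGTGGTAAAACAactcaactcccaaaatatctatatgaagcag
DDX56: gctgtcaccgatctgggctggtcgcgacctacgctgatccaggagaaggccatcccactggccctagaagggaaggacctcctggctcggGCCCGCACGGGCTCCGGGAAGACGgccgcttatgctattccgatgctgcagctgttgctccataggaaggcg

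Among the helicases of translation and mRNA turnover, 1 of 15 events was called in RS3 and 0 of 18 in RS2. Of all events, 0.967% were called in RS3 and 0.0712% in RS2. Counts this small are no result about a role group. DHX9 (ENSG00000135829), which unwinds double-stranded RNA and RNA-DNA hybrids, held the 1 call of this group. Its 137-base exon lies at chr1:182824712-182824848 on the plus strand (hg19). Its inclusion fell by 0.408 in RS3 in the authors' deposited table (p = 3.36e-06, FDR = 0.000571). For RS2 the authors' deposited table lists -0.282, with p = 0.0123 and an FDR of 0.798, which was not called. In GENCODE 29 this exon occurs only as exon 2 of 3 in a processed transcript with no coding sequence, and the 28-exon coding transcript skips it. The other DHX9 exons are coding or partly coding, and their differences in the authors' deposited tables ran from -0.019 to -0.002 in RS2 and from -0.044 to -0.004 in RS3.

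DHX34 (ENSG00000134815) is a factor of nonsense-mediated decay. Its 75-base exon lies at chr19:47880172-47880246 on the plus strand. The authors' deposited tables list 0.188 in RS2 (p = 0.00994, FDR = 0.753) and 0.242 in RS3 (p = 0.00193, FDR = 0.0948). GENCODE 29 has this exon only in a transcript annotated for nonsense-mediated decay, as exon 6 of 11, while the 17-exon coding transcript skips it. The TGA stop codon, in capitals in the DHX34 sequence, starts at base 51 and leaves 22 bases of the exon after it. The 3 other listed DHX34 exons are coding, and their differences ran from -0.014 to 0.053 in RS2 and from 0.004 to 0.051 in RS3 in the authors' deposited tables.

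DHX29, which helps ribosomes scan structured leaders, was listed for RS3 only. The authors' deposited table lists -0.105 for its 74-base coding exon at chr5:54594419-54594492 (p = 0.02, FDR = 0.415). Its 76-base coding exon had -0.063 (p = 0.292) in the authors' deposited table. DDX3X, which promotes translation of structured mRNAs, had 8 events, and the largest absolute difference was 0.014. DDX6, a repressor of translation that promotes decapping, had -0.154 in RS2 for a 467-base exon (p = 0.28) in the authors' deposited table. DHX36, which unwinds G-quadruplexes, had 1 exon, listed for RS2 only, at -0.104 (p = 0.215) in the authors' deposited table. DDX1, part of the tRNA ligase complex, likewise had 1 exon for RS2 only, at -0.012 in the authors' deposited table.

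The 13 listed helicases of ribosome biogenesis held the other call, 1 of 61 events in RS3, with 0 of 56 in RS2. The shares of all events called were again 0.967% in RS3 and 0.0712% in RS2. DDX31 (ENSG00000125485) is a nucleolar protein of ribosome assembly. Its 82-base exon lies at chr9:135501051-135501132 on the minus strand (hg19) and stands in 2 rows of the RS3 table, which gives no flanking exons to tell them apart. Inclusion in 1 row of the authors' deposited table fell by 0.371 (p = 0.000505, FDR = 0.0339). The other RS3 row of the authors' deposited table lists 0.015 (p = 0.649), and the single RS2 row lists 0.006 (p = 0.865). The call thus rests on 1 of the 2 rows. It is coding exon 17 of 20, lies in 3 coding transcripts, and is skipped by none that is annotated. Its length is not a multiple of 3, so a transcript without it has a shifted reading frame.

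The next exon of DDX31 was also low in RS3 without a call. This 112-base coding exon, number 18 of 20 at chr9:135493717-135493828, had -0.146 (p = 0.00579, FDR = 0.202) and -0.023 (p = 0.312) in its 2 RS3 rows of the authors' deposited table. In RS2 the authors' deposited table lists -0.039 (p = 0.383). A 104-base DDX31 exon that could not be matched to the annotation had 0.001 in RS2 and 0.015 in RS3 in the authors' deposited tables.

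DDX55 had the most events of any helicase, 30 over both tables. Its 115-base coding exon at chr12:124102305-124102419 had -0.071 in RS3 (p = 0.0233, FDR = 0.451) in the authors' deposited table. The same exon had 3 rows in RS2, at -0.078, -0.041 and 0.01 in the authors' deposited table. A 117-base DDX55 exon that carries a stop codon in a decay transcript had RS2 rows at -0.514 (p = 0.2) and 0.094 (p = 0.761) and RS3 rows at 0.269 (p = 0.469) and 0.098 (p = 0.541) in the authors' deposited tables. Rows of the same exon thus differed in sign within RS2.

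DHX33 had -0.065 in RS3 (p = 0.0228, FDR = 0.447) and -0.014 in RS2 (p = 0.482) for its 112-base coding exon at chr17:5358480-5358591 in the authors' deposited tables. DDX54 had -0.026 in RS2 (p = 0.0331) and 0.009 in RS3 for its 231-base coding exon at chr12:113603607-113603837 in the authors' deposited tables. The neighbouring 74-base DDX54 exon, listed for RS2 only, had 0.28 (p = 0.285) in the authors' deposited table. A 93-base exon of DDX52 had 0.205 in RS2 (p = 0.327) and 0.205 in RS3 (p = 0.552) in the authors' deposited tables. A coding exon of DDX50 had -0.065 in RS3 (p = 0.282) in the authors' deposited table. The other 7 genes of this group, DDX10, DDX21, DDX24, DDX27, DDX49, DDX56 and DHX37, kept every event under 0.05 in both tables.

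The 13 helicases of splicing and mRNA export had no call, with 3 of 53 events at p under 0.05 in RS3 and 1 of 48 in RS2. Over all events, p was under 0.05 for 7.61% in RS3 and 4.52% in RS2. DDX5 (ENSG00000108654), a coregulator of splicing and transcription, passed the FDR threshold with a small difference. Its 225-base coding exon, number 12 of 13 at chr17:62496667-62496891 on the minus strand, had -0.029 in RS3 (p = 1.24e-05, FDR = 0.00177) and -0.005 in RS2 (p = 0.177) in the authors' deposited tables. Its paralogue DDX17 had no absolute difference above 0.015.

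DDX42 (ENSG00000198231), which binds the SF3B complex of the U2 snRNP, also passed the FDR threshold below the size threshold. Its 71-base exon at chr17:61852468-61852538 on the plus strand is 5′ untranslated, exon 2 of 19, and 3 coding transcripts skip it. The authors' deposited tables list -0.047 in RS2 (p = 0.0715) and -0.088 in RS3 (p = 0.000206, FDR = 0.0173). The DDX42 exon was negative in both, and the other DDX42 events ran from -0.019 to 0.018.

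DHX35, a spliceosomal DEAH protein, had -0.192 in RS3 (p = 0.0154, FDR = 0.36) and -0.03 in RS2 (p = 0.556) for its 93-base coding exon at chr20:37601202-37601294 in the authors' deposited tables. This exon, number 3 of 22, holds all of motif I at its bases 55 to 78, in capitals in the DHX35 sequence. Its length is a multiple of 3, and 1 annotated coding transcript skips it. Its 82-base and 130-base exons, listed for RS3 only, had -0.099 (p = 0.0755) and 0.093 (p = 0.842) in the authors' deposited table.

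Of the other spliceosomal helicases, DDX23 of the U5 snRNP, DDX46 of the U2 snRNP, DDX41 and DHX38 kept every event under 0.05. DHX8, which releases spliced mRNA, had no absolute difference above 0.057. DHX15, which helps to take spliceosomes apart, had a 223-base exon outside its coding transcripts, in 2 rows of each table. The DHX15 rows had 0.07 (p = 0.615) and 0.0 in RS2 and -0.104 (p = 0.0813) and -0.001 in RS3 in the authors' deposited tables. DDX39A, an mRNA export helicase, had a 137-base exon with 0.5 in RS2 (p = 0.382) and 0.378 in RS3 (p = 0.61) in the authors' deposited tables.

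DDX19A and DDX19B are closely similar neighbours in mRNA export, so their reads may have been split between them. DDX19A had no absolute difference above 0.016. A locus listed as DDX19B (ENSG00000260537), which overlaps both genes in GENCODE 29, had a 136-base exon with -0.308 in RS2 (p = 0.0356) and -0.089 in RS3 (p = 0.247) in the authors' deposited tables. A 54-base exon of that locus had 0.112 in RS2 (p = 0.05) and -0.016 in RS3 (p = 0.795) in the authors' deposited tables. Under the identifier of DDX19B itself (ENSG00000157349), a 178-base exon had 0.01 in each of the authors' deposited tables. A 93-base exon had -0.026 in RS2 under that identifier and 0.023 under the overlapping locus in the authors' deposited table. Listed under both, it counts 2 times, so the 169 exons stand at 168 positions.

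**Figure D2:**
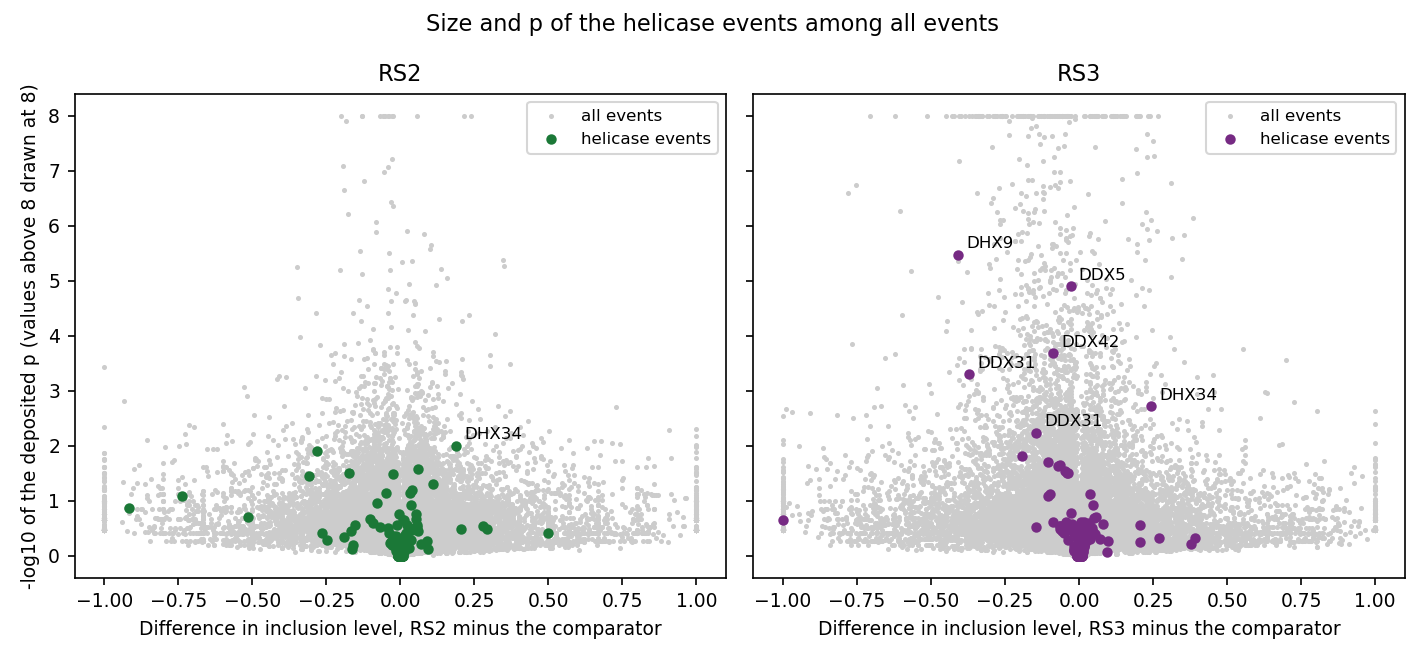
Difference in inclusion level and -log10 of the deposited p for RS2 minus the comparator and RS3 minus the comparator, with all events in grey and helicase events in colour; values above 8 on this scale are drawn at 8. The called DHX9 event stands at -0.408, while the widest helicase differences, -0.915 in RS2 and -1 in RS3, have p-values of 0.135 and 0.223.

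DHX30, which acts on the mitochondrial ribosome, had 21 events and no call. Its 111-base coding exon at chr3:47870514-47870624 had -0.038 in RS3 (p = 0.0311, FDR = 0.53) and 0.014 in RS2 (p = 0.22) in the authors' deposited tables. Its 131-base coding exon had -0.736 in RS2 (p = 0.0802) and -0.017 in RS3 (p = 0.664) in the authors' deposited tables. A 29-base exon had 2 rows in RS3, at 0.204 (p = 0.274) and -0.063 (p = 0.321), in the authors' deposited table. Its 2 rows in RS2 had 0.091 (p = 0.536) and -0.028 (p = 0.643) in the authors' deposited table, so the rows differed in sign within each table.

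DDX11 is a DNA helicase of sister chromatid cohesion and DDX12P is a pseudogene copy of it, so reads may have been split here too. An 85-base coding exon of DDX11 at chr12:31255870-31255954 had 0.059 in RS2 (p = 0.0264) and 0.046 in RS3 (p = 0.12) in the authors' deposited tables. A 344-base exon of DDX11, listed for RS2 only, had -0.264 (p = 0.391) in the authors' deposited table. The widest helicase difference in RS2 was -0.915, in a 158-base exon of DDX12P (p = 0.135), in the authors' deposited table. In RS3, all 10 events of the pair lay between -0.026 and 0.046.

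The antiviral helicases had no event with p under 0.05, of 6 events in RS2 and 7 in RS3. Over all events the shares were 4.52% and 7.61%, so so few events are no result about this group. DDX58 (RIG-I), a sensor of viral RNA, had 0.016 in RS2 and 0.004 in RS3 for a 255-base exon in the authors' deposited tables. DHX58 (LGP2), a regulator of RIG-I-like sensing, had 8 events, all positive, from 0.014 to 0.06 in RS2 and from 0.024 to 0.082 in RS3. DDX60L had no absolute difference above 0.05. DDX43, a cancer-testis gene, had 1 event, in RS3, at -1 (p = 0.223) in the authors' deposited table, the widest helicase difference in that table.

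Of the genes in no role group, DHX57 had -0.173 in RS2 (p = 0.0319) and -0.059 in RS3 (p = 0.353) for a 135-base coding exon at chr2:39033701-39033835 in the authors' deposited tables. DHX40 was listed for RS3 only, with overlapping exons of 168 and 83 bases that share a start, at -0.048 (p = 0.029) and -0.042 (p = 0.0307) in the authors' deposited table. The longer form, at chr17:57643988-57644155, holds all of motif I at its bases 114 to 137. DDX59 had a 252-base coding exon with -0.249 in RS2 (p = 0.522) and 0.392 in RS3 (p = 0.479) in the authors' deposited tables. DHX32 had no absolute difference above 0.035.

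**Figure D3:**
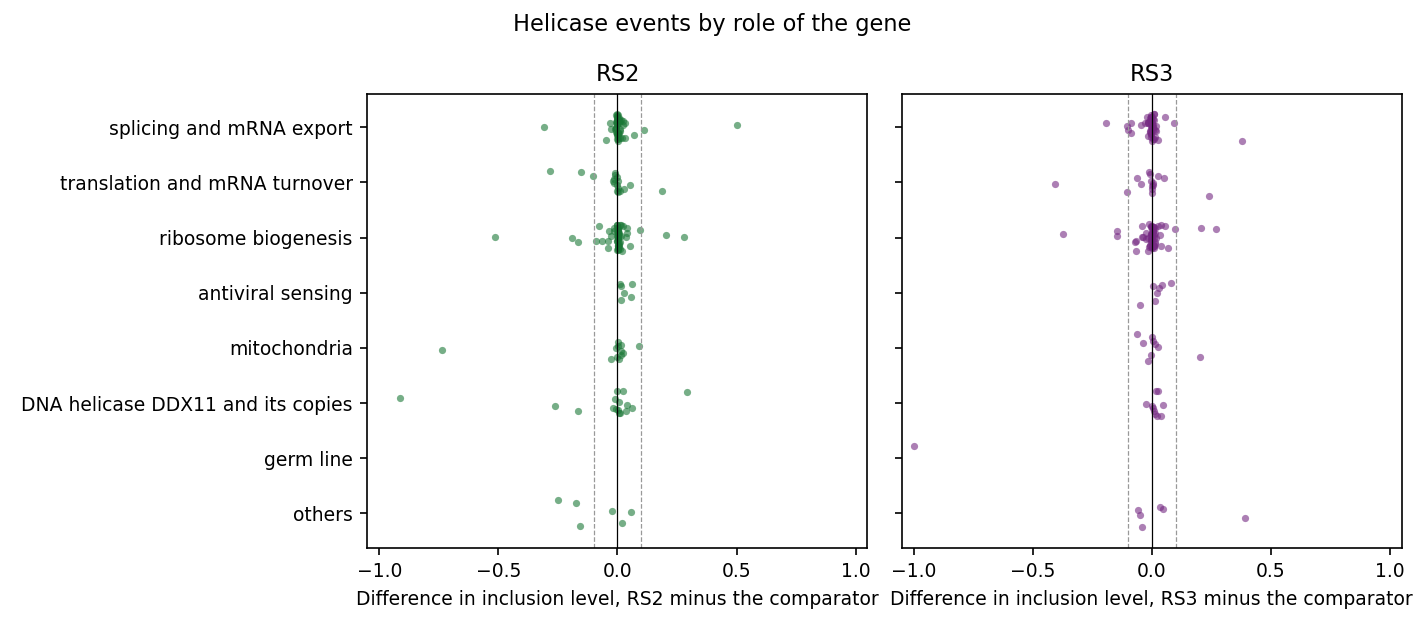
Difference in inclusion level of every helicase event by the role of its gene, for RS2 minus the comparator and RS3 minus the comparator; each point is 1 event and dashed lines mark -0.1 and 0.1. Most points lie near 0, with a median of 0.002 over all helicase events in each table.

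Among the 112 exons classed as coding, 3 were found to hold all of motif I and 1 all of motif II. Each was searched in 1 transcript, by the first match of a sequence pattern. Motif II was searched only where the pattern of motif I had matched in the same transcript. A motif that departs from its pattern was missed, so these counts are not a complete tally. Exons of other classes, and transcripts whose coding sequence does not start with methionine, were not searched. The DHX35 and DHX40 exons with motif I were negative in RS3, with p under 0.05 and no call, whereas the DDX56 exon with motif I at its bases 91 to 114 had 0.005 in RS2 and 0.006 in RS3 in the authors' deposited tables. A 151-base DDX27 exon that holds all of motif II had 0.002 in RS2 and -0.003 in RS3 in the authors' deposited tables.

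By their place in GENCODE 29 transcripts, 112 of the 169 exons were coding, 38 lay outside the basic coding transcripts, 7 were partly coding, 4 were 5′ untranslated and 8 could not be matched. Annotated transcripts skip 46 of the 112 coding exons. An exon counted as outside when no basic coding transcript holds it with the same start and end. Some of these exons are thus longer or shorter forms that overlap coding exons, as in DDX5 and DDX49. Of the 38 outside, some lie in protein-coding transcripts that are not in the GENCODE basic set, as in DDX39A and DDX11. Others belong to the DDX12P pseudogene. Of the events outside the basic coding transcripts, 9 of 37 differed by 0.1 or more in RS2 (24.3%) and 7 of 36 in RS3 (19.4%). Among coding events, 8 of 107 did so in RS2 (7.48%) and 6 of 113 in RS3 (5.31%). This comparison was not tested. The deposited p was under 0.05 for only 3 events outside the basic coding transcripts in RS2 and 2 in RS3, whatever their size. Most of the wide differences there thus had a p of 0.05 or above. Among coding events, p was under 0.05 for 3 in RS2 and 10 in RS3. Of the 38 exons outside the basic coding transcripts, 12 carry a stop codon in a decay transcript, the DHX34 exon among them. By the row with the smallest p of each exon, 8 of these 12 lay under 0.05 in RS3, against 67.3% of all events. In RS2, 6 of the 10 listed did so, against 69.7% of all events. The shares of all events count every row, and these counts are no result about decay exons. Among the decay exons under 0.05 in each table, a 117-base DDX46 exon had 0.03 in RS2 (p = 0.726) and -0.045 in RS3 (p = 0.257) in the authors' deposited tables. A 185-base DDX39A exon had 0.005 in RS2 and 0.006 in RS3 in the authors' deposited tables.

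**Figure D4:**
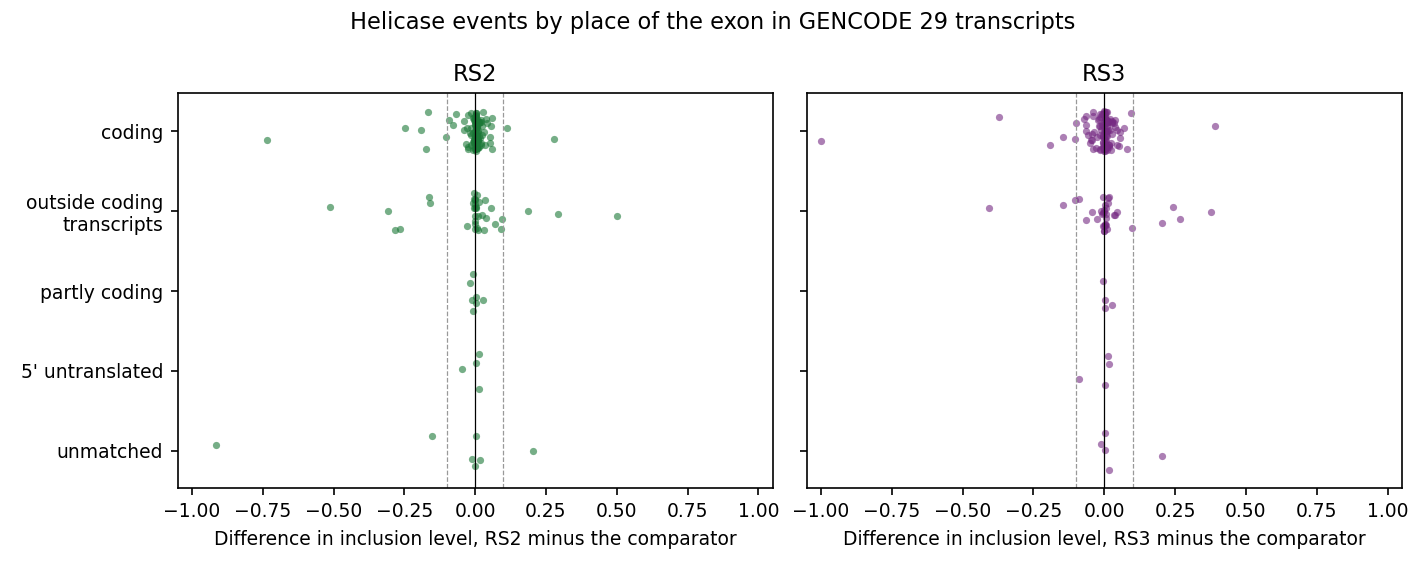
Difference in inclusion level of every helicase event by the place of its exon in GENCODE 29 transcripts, for RS2 minus the comparator and RS3 minus the comparator; each point is 1 event and dashed lines mark -0.1 and 0.1. Events that differ by 0.1 or more make up 24.3% of those outside the basic coding transcripts in RS2 and 19.4% in RS3. Among coding events they make up 7.48% and 5.31%. Most of the wide differences outside the basic coding transcripts had a deposited p of 0.05 or above. Outside means that no basic coding transcript holds the exon with the same start and end.

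A smaller share of helicase events than of all events had a wide difference. A difference of at least 0.1 was listed for 20 helicase events in RS2 (12.3%), against 19.2% of all events, and for 14 in RS3 (8.64%), against 21.2% of all events. Differences under 0.05 made up 80.2% of helicase events in RS2, against 69.7% of all events, and 80.9% in RS3, against 67.3% of all events. The median helicase difference was 0.002 in each table, against 0.0 in RS2 and -0.001 in RS3 for all events. Helicase exons had a median length of 118 bases in the RS2 table, against 119 bases for all exons, and 120 bases in the RS3 table, the same as all exons. These are descriptions, with no test.

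Other RNA helicases and helicase cofactors were counted in the same way. Of 23 other RNA helicases, 17 were listed in RS3 and 16 in RS2. In RS3, 2 of 51 events were called (3.92%, against 0.967% of all events), and 3 had p under 0.05, against 7.61% of all events. In RS2, 0 of 50 were called, against 0.0712% of all events, and 0 had p under 0.05, against 4.52% of all events. Both calls were overlapping forms of 1 exon of EIF4A2, a helicase of the eIF4F complex. Inclusion of its 107-base form at chr3:186506099-186506205 rose by 0.196 in RS3 (p = 2.97e-06, FDR = 0.00052), and that of its 111-base form rose by 0.175 (FDR = 0.00145), in the authors' deposited table. In RS2 each form had 0.005 in the authors' deposited table.

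Of 36 helicase cofactors, 33 were listed in RS3 and 32 in RS2. In RS3, 5 of 185 events in 3 genes were called (2.7%, against 0.967% of all events), and 16 had p under 0.05, against 7.61% of all events. In RS2, 0 of 178 were called, against 0.0712% of all events, and 11 had p under 0.05, against 4.52% of all events. All 5 called events fell. LSM14B, a partner of DDX6, had -0.422 in RS3 (FDR listed as 0) and -0.114 in RS2 (p = 0.00884, FDR = 0.713) for its 117-base exon at chr20:60702641-60702757 in the authors' deposited tables. That LSM14B exon stood in 4 rows of each table, and the other 3 had 0.181, 0.007 and 0.009 in RS2 and -0.092, -0.052 and 0.053 in RS3 in the authors' deposited tables, each without a call. SUGP2, a G-patch protein, had 3 called events in RS3, at -0.154 and -0.152 for overlapping forms of 1 exon and at -0.118 for a 214-base exon, in the authors' deposited table. In RS2 the same SUGP2 exons had -0.112 (p = 0.0014), -0.118 (p = 0.000709) and -0.052 (p = 0.00154) in the authors' deposited table, with no call. EIF4G1, the scaffold of eIF4F, had -0.208 in RS3 (FDR = 0.0431) in 1 row of its 94-base exon at chr3:184033551-184033644, and from -0.006 to 0.001 in the other 4 rows, in the authors' deposited table. Its 6 rows in RS2 ran from -0.008 to 0.134 in the authors' deposited table, with no call.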

How the data were processed

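RNA was made into TruSeq libraries after mRNA selection, per the labels' protocols. The submitters' processing notes name hg19, STAR and FastQC without versions, and which program called the events is not stated there. Per the file headers, the authors' deposited tables give, for each skipped exon, its difference in inclusion level with an FDR and a p-value. They also hold 4 columns with the level of a single library, which match no sample label and entered no result. These columns were looked at to settle that the difference is RS2 or RS3 minus the comparator, a reading no table of results here holds.

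Events were counted from the deposited values with Python 3.11.15, pandas 2.3.3 and numpy 2.4.6, and no test across libraries was added, since each group had 1. The Benjamini-Hochberg adjustment and the spacing step used to match exons were tested on simulated data, and the counting was not. Starts were made 1-based. Exons were matched to GENCODE 29 exons of the same gene by length and spacing, with at least 2 exons at one spacing or a single candidate. Of 169 exons, 161 matched. The matching used GRCh38 exon positions, but no GRCh38 coordinate is given here.

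The members, role groups and partner lists were chosen with earlier results of these data known. Named were exons with p under 0.05 in either table, the 10 largest differences per table with at most 1 per gene, the 2 genes with most events per role group, and partner genes with a call. Other exons named were chosen after their values were seen. Alternatives changed the FDR and size thresholds, used the deposited p-value or a Benjamini-Hochberg adjustment, kept 1 row per exon or only exons with a single row, or left out DDX12P and the locus overlapping DDX19A and DDX19B.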

Additional observations from a re-analysis of the deposited data

Results flagged for a closer look

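The 252-base exon of DDX59 (chr1:200619553-200619804) had differences of opposite sign in the authors' deposited tables, -0.249 in RS2 and 0.392 in RS3. The deposited p-values were 0.522 and 0.479. The difference between the tables was not tested, and the exon was singled out after its values were seen.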

How the results depend on the processing

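With the deposited p under 0.05 in place of the FDR, 4 helicase events were called in RS2, against 0, and 6 in RS3, against 2. With an FDR under 0.01, 1 was called in RS3. With a difference of at least 0.2, 11 events in RS2, against 20, and 9 in RS3, against 14, passed the size threshold. Among exons in a single row, 9 events in RS3 had a difference of at least 0.1. This setting leaves out exons by construction. Under the other alternatives run, each count stayed within 1.5 times its value, and the median differences were 0.001 to 0.002. No paired analysis was possible because each group had 1 library, and for the same reason no library could be left out. Read depth is unknown, so the precision of a single difference cannot be given.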
